A study of Mus musculus with 12 samples.

Results

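The Bcl2 family and its apoptosis effectors were represented by 14 of the 12422 probe sets tested on Affymetrix MG-U74A arrays of mouse hippocampus. A probe set was a member when its annotation gave a single gene symbol and that symbol was Bcl2, Bcl2l1, Bcl2l11, Bax, Bak1, Bad, Bid or Mcl1, which 13 probe sets fulfilled. A further probe set was added, called the Bcl2a1 probe set here. Its annotation names the Bcl2a1 paralogues Bcl2a1a, Bcl2a1b, Bcl2a1c and Bcl2a1d, together with Mthfs, a folate enzyme. Other probe sets that name Bcl2a1 paralogues without Mthfs were not counted as members and are given below. Members were chosen with earlier results of these data known, so this choice may not be independent of the signal. The 13 single-symbol probe sets covered 7 of the 8 listed genes, since no probe set carried Bax as its only symbol in the annotation used here. The strongest signals among the 14 members were a rise of the Bcl2a1 probe set, both with kainate and in mutants, and a rise of Mcl1 with kainate.

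The study compared mutant mice with control mice, and its title gives the mutation as loss of CREB and CREM, related transcription factors that respond to cAMP and calcium. Animals of both genotypes, males and females 5 to 6 weeks old from shared litters, received kainate, a glutamate receptor agonist that provokes seizures, at 20 mg/kg into the abdominal cavity, or saline. Hippocampi were taken 1 hour later. The 4 groups were mutant kainate, mutant saline, control kainate and control saline, each measured on 3 arrays. The RNA on an array was a pool of 3 animals, which makes 9 animals a group, and pools rather than animals are the replicates. The labels do not give the alleles of either genotype or the cells in which CREB and CREM were lost. All values are log2 GCRMA values, and differences between groups are differences of these values.

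Proteins of the Bcl2 family meet at the outer mitochondrial membrane. Bak1 and Bax form pores that release cytochrome c, the guardians Bcl2, Bcl2l1 (Bcl-xL), Mcl1 and the Bcl2a1 proteins (A1) hold them in check, and the BH3-only proteins Bid, Bad and Bcl2l11 (Bim) oppose the guardians or act on the pore formers directly. In neurons of the hippocampus these proteins set the threshold for death after excessive excitation. Bcl2a1 is best known in leukocytes, and Mcl1 is a protein of short life whose messenger RNA is induced by growth factors and stress. CREB binds the cAMP response element, and Bcl2 and Mcl1 have been described as genes that CREB can act on.

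The arrays correlated at 0.973 to 0.998 with each other across probe sets. The control kainate replicate 3 array had a narrower spread of values than the other 11, with an interquartile range of 3.74 log2 units. Arrays numbered 1 also deviated together from their group means, so results are given below without that array or without the arrays numbered 1 where the call depends on them. The 3 Creb1 probe sets and the 2 Crem probe sets were all lower in mutants, with differences of -0.29 to -0.09 averaged over treatments. None passed the test (smallest adjusted p = 0.141), and the median over all probe sets was -0.06. The Creb1 probe sets were dim, at percentiles 26.0 to 45.0. Under saline their means were 2.90, 3.16 and 3.87 in mutants and 2.93, 3.18 and 3.89 in controls. Whether these probe sets lie in the disrupted parts of the genes is not given in the labels. Of the hippocampal markers, 2 of 4 for dentate granule neurons (Dsp and Calb1) and 3 of 3 for CA1 pyramidal neurons, Wfs1 among them, had a mean level above the array's median. Of the striatal markers 1 of 3 did, Penk at percentile 84.8, while Drd2 and Rgs9 lay at percentiles 31.3 and 28.6.

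Differences were tested with limma in a fit over all 12 arrays, and a probe set was called when its Benjamini-Hochberg adjusted p over the 12422 probe sets was under 0.05. Averaged over genotypes, 2 of the 14 family probe sets were higher with kainate and 0 were lower, where 0.942% of all probe sets were called. In controls alone 1 was higher with kainate, against a background of 0.33%. In mutants alone 0 were called by limma, where the background was 0.298%. Averaged over treatments, 1 was higher in mutants than in controls and 0 were lower, and 0.612% of all probe sets were called. Under saline 1 was higher in mutants, against 0.137% of all probe sets. Under kainate limma called 0, where 0.354% of all probe sets were called. Apart from Mcl1 with averaged kainate, every member called was the Bcl2a1 probe set, so these counts depend on its choice as a member. The kainate difference was not shown to depend on genotype for any member: the interaction gave 0 calls among members and 0% among all probe sets. At an unadjusted p under 0.05, kainate gave 4 members averaged over genotypes (11.9% of all probe sets), 3 in mutants (6.28%) and 3 in controls (7.37%). Genotype gave 1 member at that threshold averaged over treatments (5.98%), 1 under kainate (4.96%) and 1 under saline (2.57%), and the interaction 1 (0.861%). The median difference of the 14 probe sets was 0.04 for kainate averaged over genotypes and -0.03 for genotype averaged over treatments, beside 0.03 and -0.06 over all probe sets.

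**Figure D1:**
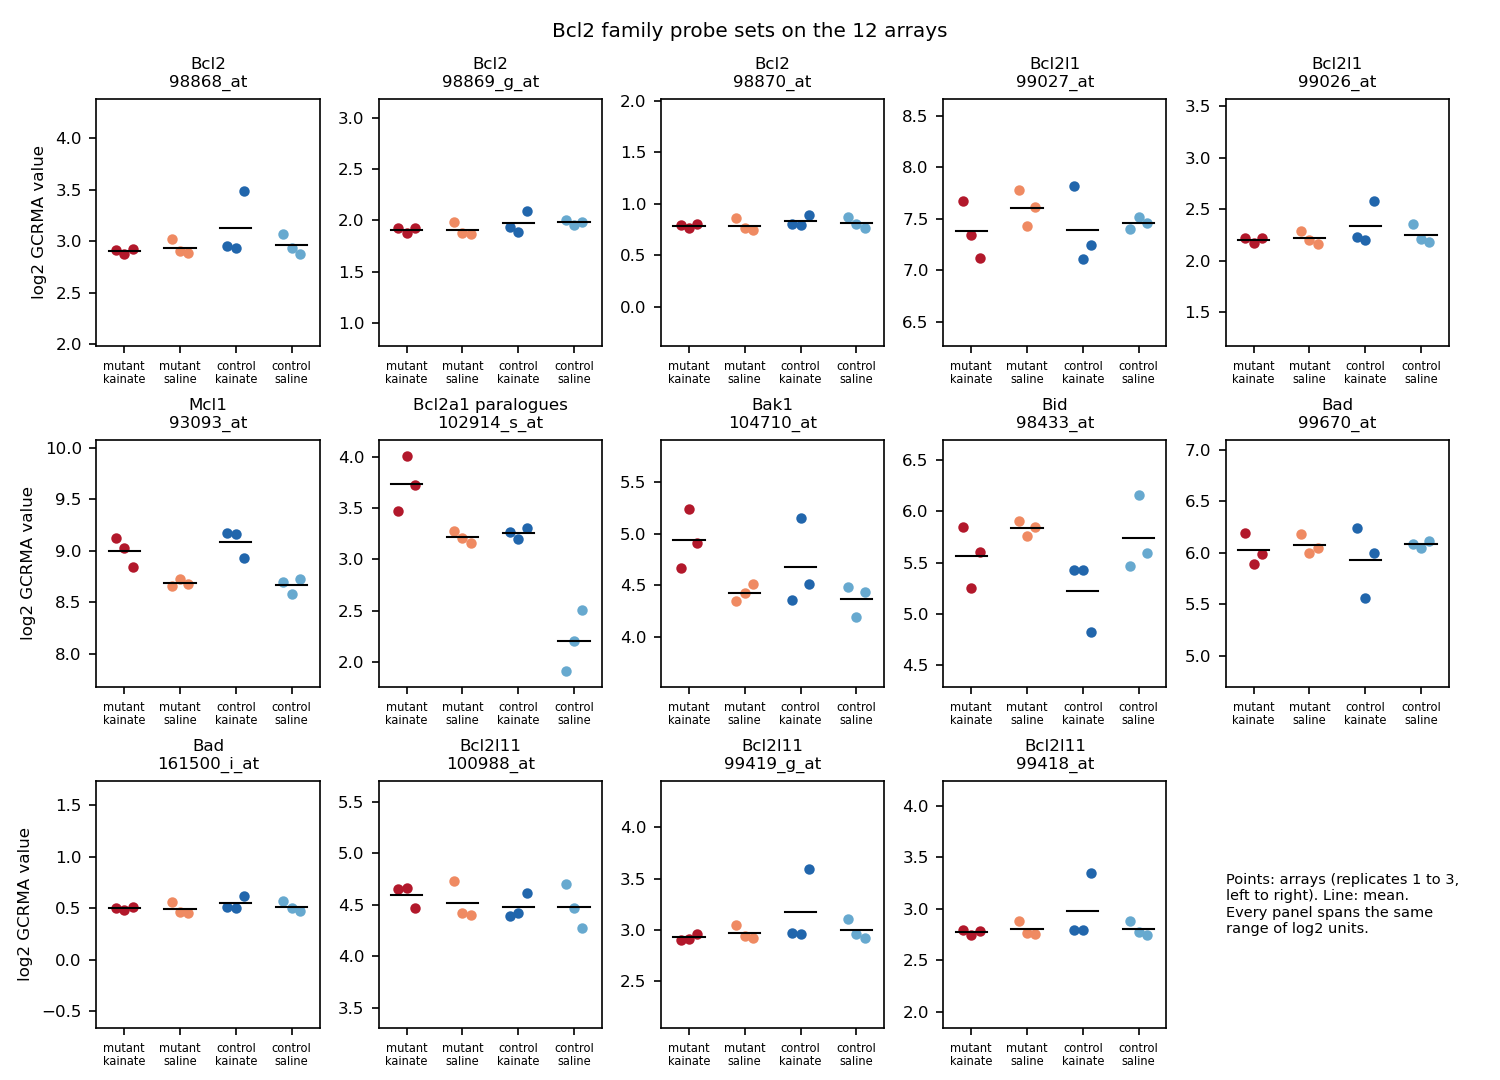
Log2 GCRMA value (vertical axes) of the family probe sets on each of the 12 arrays, by group, with the group mean as a line and replicates 1 to 3 running left to right. The mutant kainate, mutant saline and control kainate arrays of the Bcl2a1 probe set lie between 3.16 and 4.002, all above the control saline arrays, which lie between 1.92 and 2.51.

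The Bcl2a1 probe set was the only member called in more than 1 comparison. Its values on replicates 1, 2 and 3 were 3.47, 4.002 and 3.73 in mutant kainate pools and 3.28, 3.21 and 3.16 in mutant saline pools. They were 3.27, 3.19 and 3.31 in control kainate pools and 1.92, 2.21 and 2.51 in control saline pools. The control saline arrays were thus the lowest 3 of the 12 and the mutant kainate arrays the highest 3, while the mutant saline and control kainate arrays overlapped. The mean level was 3.73 ± 0.27 in mutant kainate, 3.22 ± 0.06 in mutant saline, 3.26 ± 0.06 in control kainate and 2.21 ± 0.29 in control saline pools (SD, n = 3 each). The neighbours in this order that did not differ beyond their spread were control kainate and mutant saline.

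In controls the Bcl2a1 probe set was higher with kainate than with saline by 1.05 on the log2 scale (SE 0.16, 95% interval 0.70 to 1.39, adjusted p = 0.0164), or 2.06-fold. In mutants the same difference was 0.52 (SE 0.16, adjusted p = 0.442) and did not pass, although the kainate arrays lay above the saline arrays there too. Averaged over genotypes it was 0.78 (SE 0.11, 95% interval 0.54 to 1.03, adjusted p = 0.0076). The kainate difference had the same sign in each numbered set of arrays, at 1.35, 0.99 and 0.80 in controls and 0.19, 0.79 and 0.57 in mutants. The difference between these kainate effects, mutants minus controls, was -0.53 (SE 0.22, 95% interval -1.02 to -0.04), with an unadjusted p of 0.0362 and an adjusted p of 0.939, so it is not called.

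Mutants exceeded controls on the Bcl2a1 probe set by 1.00 under saline (SE 0.16, 95% interval 0.66 to 1.35, adjusted p = 0.0464), or 2.01-fold. Under kainate the difference was 0.48 (SE 0.16, adjusted p = 0.53), without overlap of the arrays. Averaged over treatments it was 0.74 (SE 0.11, 95% interval 0.50 to 0.98, adjusted p = 0.0131), or 1.67-fold. Members whose arrays did not overlap numbered 1 under saline and 3 under kainate for genotype, where 7.08% and 8.99% of all probe sets were so separated, and 3 in controls and 3 in mutants for kainate, where 7.04% and 12.4% were. Those separated by genotype under kainate were the Bcl2a1 probe set and dim probe sets of Bcl2 (98868_at) and Bcl2l11 (99418_at). On 98868_at the highest mutant array was 2.927 and the lowest control array 2.929, and on 99418_at they were 2.793 and 2.796 (adjusted p = 0.53 each). Across all 6 kainate and all 6 saline arrays 1 member was separated (1.76% of all probe sets), and across the 6 mutant and 6 control arrays 0 were (0.974%).

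The averaged kainate and averaged genotype calls for the Bcl2a1 probe set each held in all 12 fits that left out an array. Its calls in controls and under saline did not. The kainate call in controls was lost without control kainate replicate 2 (adjusted p = 0.0604) or 3 (0.0721) and without control saline replicate 1 (0.053) or 2 (0.0964). The saline genotype call held without control saline replicate 3, mutant kainate replicate 1 or mutant kainate replicate 2. It was lost without any other array, with adjusted p between 0.0655 and 0.228. Such a loss need not change the difference: without control kainate replicate 3 it stayed at 1.00, with an adjusted p of 0.0758. With arrays numbered 2 and 3 alone, the averaged genotype difference was 0.72 with an adjusted p of 0.0567, while the averaged kainate difference was 0.79 with an adjusted p of 0.0101. The mean level of this probe set lay at percentile 30.0, so its signal is dim, and it was left out of a fit restricted to probe sets above the median level.

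The other probe sets annotated to Bcl2a1 genes, which were not counted as members, did not give the same picture. Probe set 93869_s_at, annotated to Bcl2a1a, Bcl2a1c and Bcl2a1d, had 2.65, 2.22 and 2.70 in mutant kainate pools, 2.31, 2.401 and 2.22 in mutant saline pools, 2.19, 2.16 and 2.37 in control kainate pools and 2.22, 2.13 and 2.08 in control saline pools. Mutants exceeded controls on it by 0.23 averaged over treatments (SE 0.09, adjusted p = 0.63), and kainate exceeded saline by 0.16 (adjusted p = 0.594). Probe set 102913_at, annotated to Bcl2a1a, Bcl2a1b and Bcl2a1d, differed by -0.13 between genotypes (adjusted p = 0.63) and by 0.05 with kainate. On 102913_at control kainate replicate 3 stood at 4.12 and the other 11 arrays between 3.41 and 3.64. Which of the paralogues, or Mthfs, gave the signal of the Bcl2a1 probe set cannot be told from these probe sets.

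Bcl2a1 is best known in leukocytes, so the markers of microglia and leukocytes are given beside it. Of 15 marker genes measured, 9 were higher in mutants averaged over treatments and 0 were lower, where 0.715% of all genes were called, and the median difference was 0.91. With kainate averaged over genotypes limma called 0, and the median difference was 0.17. At an unadjusted p under 0.05 kainate gave 4 of the 15, where 13.6% of all genes passed. The mean of the 15 markers was 6.87 to 7.09 on mutant kainate arrays and 6.60 to 6.85 on mutant saline arrays, against 5.95 to 6.17 on control kainate arrays and 5.85 to 5.91 on control saline arrays. Every mutant array was thus above every control array in this mean, which was not so for the Bcl2a1 probe set. Among the markers, Cd52 was higher in mutants by 2.32 (SE 0.19, adjusted p = 0.000385), Tyrobp by 1.76 (SE 0.12, adjusted p = 0.000159) and C1qa by 1.08 (SE 0.10, adjusted p = 0.000659). Itgam, at percentile 15.5, and Ptprc, at percentile 48.5, differed by -0.04 and -0.02, and neither passed. Markers of other cells also differed by genotype: 1 of 7 astrocyte markers was higher in mutants, Gfap by 1.62 (adjusted p = 0.00554), with 7 of 7 differences above 0 and a median of 0.17. Of the CA1 pyramidal markers 1 of 3 was lower, Wfs1 (log2 difference -1.04, adjusted p = 0.0082), with 0 of 3 differences above 0 and a median of -0.64. The part of these cells in the Bcl2a1 signal was not tested. In RNA of whole hippocampus, more cells of a type and more RNA per cell cannot be told apart.

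**Figure D2:**
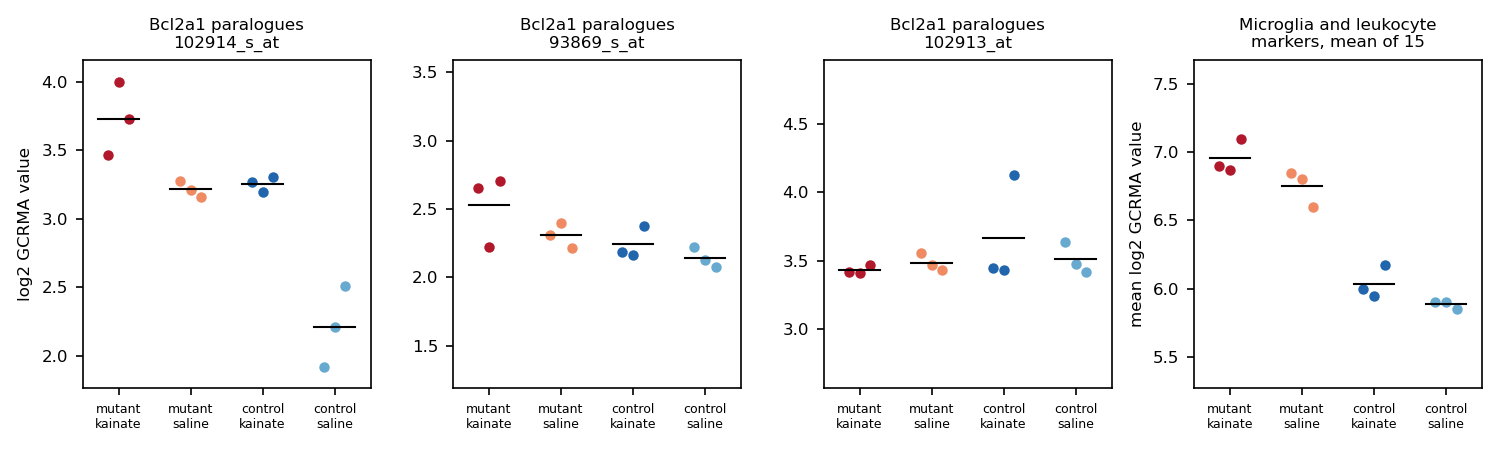
Log2 GCRMA values of the 3 probe sets annotated to Bcl2a1 paralogues, and the mean of the 15 markers of microglia and leukocytes, on each array by group (points are arrays, lines are group means). The marker mean separates mutant from control arrays, the Bcl2a1 probe set separates control saline arrays from the other 9, and 102913_at is flat except for a control kainate array at 4.12.

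The 250 bases before the start of each Bcl2a1 gene are shown because the paralogues are near copies and share the letters of the core of a cAMP response element (RefSeq, GRCm38.p6; capitals mark TGACG).
Bcl2a1a, chr9:88956670-88956919, plus strand: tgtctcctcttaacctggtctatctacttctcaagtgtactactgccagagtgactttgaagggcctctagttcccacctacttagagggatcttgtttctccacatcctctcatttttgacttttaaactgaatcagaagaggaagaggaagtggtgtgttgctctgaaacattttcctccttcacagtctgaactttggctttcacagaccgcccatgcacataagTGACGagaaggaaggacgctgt
Bcl2a1b, chr9:89199023-89199272, plus strand: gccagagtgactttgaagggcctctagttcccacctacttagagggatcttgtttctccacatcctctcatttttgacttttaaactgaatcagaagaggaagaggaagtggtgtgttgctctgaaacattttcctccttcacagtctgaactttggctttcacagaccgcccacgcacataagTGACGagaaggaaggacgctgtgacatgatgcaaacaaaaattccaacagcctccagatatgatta
Bcl2a1c, chr9:114329885-114330134, plus strand: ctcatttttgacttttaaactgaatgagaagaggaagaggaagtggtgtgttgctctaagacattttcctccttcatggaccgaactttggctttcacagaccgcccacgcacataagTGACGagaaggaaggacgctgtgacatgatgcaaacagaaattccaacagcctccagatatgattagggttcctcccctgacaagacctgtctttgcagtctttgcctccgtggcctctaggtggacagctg
Bcl2a1d, chr9:88731851-88732100, minus strand: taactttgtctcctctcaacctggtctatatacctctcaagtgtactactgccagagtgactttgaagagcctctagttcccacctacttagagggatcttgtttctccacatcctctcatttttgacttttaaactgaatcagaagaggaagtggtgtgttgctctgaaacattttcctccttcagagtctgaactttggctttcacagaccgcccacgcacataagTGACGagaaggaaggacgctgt

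In local alignments, which cover only the best-matching stretch of a pair, the 4 windows were 90.7% to 99.5% identical over 140 to 250 columns. The match lay 22 bases before the start in Bcl2a1a and Bcl2a1d, 66 before it in Bcl2a1b and 132 before it in Bcl2a1c. It fell in a stretch of 31 bases that all 4 share, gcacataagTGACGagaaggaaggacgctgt. The letters TGACG, searched on both strands of windows of 300 bases (250 before and 50 after the start), occurred in 20.8% of 32851 RefSeq windows, and the full palindrome TGACGTCA in 1.79%. A match of this kind is a description of the letters and not a binding site.

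Mcl1, a guardian of the mitochondrial membrane, was the other member that rose. Its probe set 93093_at, at percentile 87.9 of the array's mean levels, had 9.13, 9.02 and 8.84 in mutant kainate pools and 8.65, 8.73 and 8.68 in mutant saline pools. It had 9.17, 9.16 and 8.92 in control kainate pools and 8.70, 8.58 and 8.72 in control saline pools. All 6 kainate arrays lay above all 6 saline arrays, and the genotypes overlapped under both treatments. Averaged over genotypes, Mcl1 was higher with kainate by 0.37 (SE 0.07, 95% interval 0.21 to 0.52, adjusted p = 0.0375), or 1.29-fold.

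Within a genotype the Mcl1 difference did not pass, at 0.31 in mutants (SE 0.10, 95% interval 0.10 to 0.53, adjusted p = 0.474) and 0.42 in controls (SE 0.10, 95% interval 0.20 to 0.63, adjusted p = 0.212). The difference between them, mutants minus controls, was -0.11 (SE 0.14, 95% interval -0.41 to 0.20, adjusted p = 0.939). Mutants differed from controls by -0.03 averaged over treatments (95% interval -0.19 to 0.12). The averaged kainate call held when replicate 1 or 3 of the control kainate arrays, or replicate 3 of the mutant kainate arrays, was left out, and was lost without any other array, with adjusted p between 0.0571 and 0.126. With arrays numbered 2 and 3 alone it was 0.31 with an adjusted p of 0.101. For kainate averaged over genotypes 1.09% of all genes were called. Among the neuron markers 1 of 7 was lower with kainate in this comparison, Map2 (log2 difference -2.06, SE 0.33, adjusted p = 0.0167). There 2 of 7 differences were above 0, with a median of -0.20 and a highest value of 0.09. Among the markers of endothelium and blood 1 of 8 was higher, Hba-a1 by 0.53 (SE 0.10, adjusted p = 0.0372), and 6 of 8 differences were above 0, with a median of 0.23. The part of these cells in the Mcl1 difference was not tested.

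**Figure D3:**
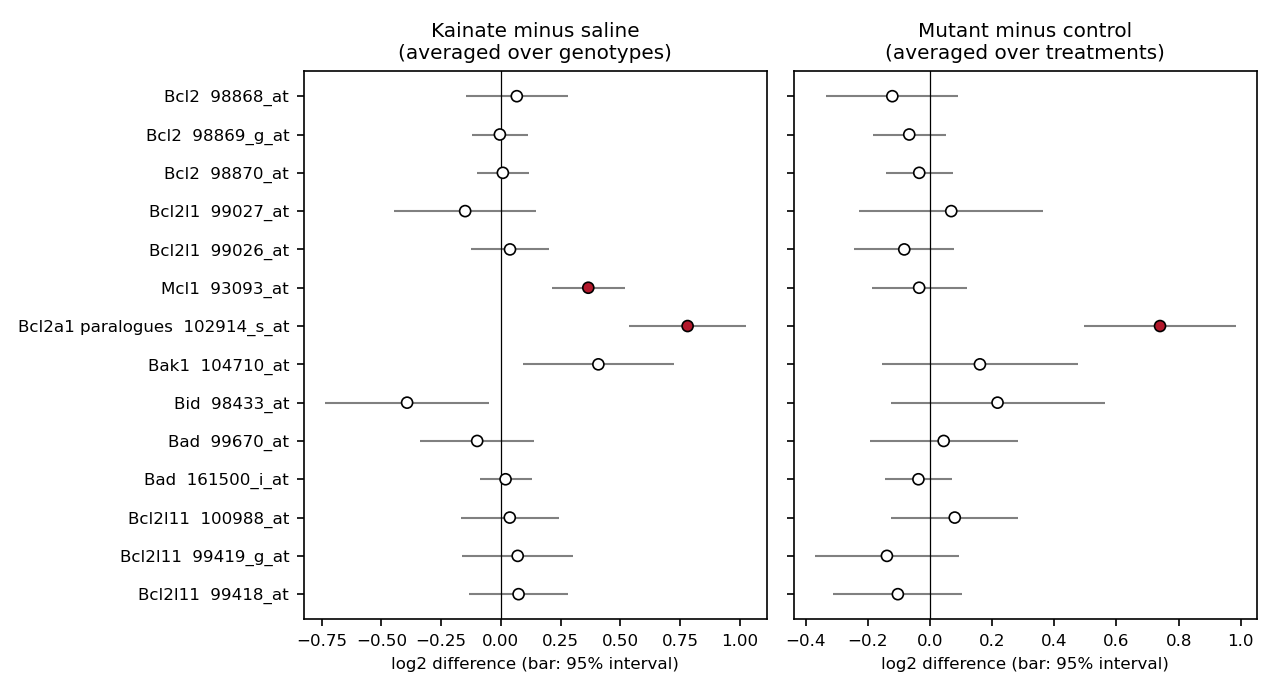
Log2 differences of the 14 family probe sets, kainate minus saline averaged over genotypes and mutant minus control averaged over treatments, with 95% intervals from the fit. The intervals of the Bcl2a1 probe set (0.54 to 1.03 and 0.50 to 0.98) and the kainate interval of Mcl1 (0.21 to 0.52) lie above 0 and belong to called differences (filled points). The kainate intervals of Bak1 (0.09 to 0.72) and Bid (-0.74 to -0.05) also leave out 0 but were not called after adjustment.

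Bases of the Bcl2 and Mcl1 windows are shown, 250 before the start for Bcl2 and 25 around the match for Mcl1. Of the 12 windows of the 8 listed genes, these 2 held TGACG on either strand, beside 20.8% of all 32851 windows. Capitals mark the match, or CGTCA where it lies on the opposite strand.
Bcl2, chr1:106714291-106714540, minus strand: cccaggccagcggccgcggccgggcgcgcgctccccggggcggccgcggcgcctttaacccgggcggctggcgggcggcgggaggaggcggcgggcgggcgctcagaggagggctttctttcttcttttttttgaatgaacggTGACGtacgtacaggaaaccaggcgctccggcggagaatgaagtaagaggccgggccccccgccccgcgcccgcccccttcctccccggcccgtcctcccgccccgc
Mcl1, chr3:95658727-95658751, plus strand: tcctcgcctgCGTCAgcacggccct

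In Bcl2 the match began 107 bases before the start, and in Mcl1 the opposite-strand match began at base 17 after it. Bcl2, the founding guardian, was dim on all 3 of its probe sets, which lay at percentiles 27.3, 8.17 and 1.10. Its brightest, 98868_at, had 2.91, 2.88 and 2.93 in mutant kainate pools, 3.02, 2.91 and 2.89 in mutant saline pools, 2.95, 2.93 and 3.49 in control kainate pools and 3.07, 2.94 and 2.87 in control saline pools. Only control kainate replicate 3 stood away from the rest. The differences were 0.07 with kainate (95% interval -0.15 to 0.28) and -0.12 with genotype (95% interval -0.33 to 0.09), averaged over the other factor. Values of 98869_g_at lay between 1.87 and 2.09 and those of 98870_at between 0.75 and 0.90 over all 12 arrays.

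Bcl2l1, a main guardian of adult neurons, was measured by 99027_at at percentile 76.0. It had 7.68, 7.34 and 7.12 in mutant kainate pools, 7.78, 7.43 and 7.62 in mutant saline pools, 7.82, 7.11 and 7.24 in control kainate pools and 7.40, 7.52 and 7.46 in control saline pools. The 4 groups overlapped. The kainate difference was -0.15 (95% interval -0.45 to 0.15) and the genotype difference 0.07 (95% interval -0.23 to 0.36). Its second probe set, 99026_at, was dim, with values of 2.17 to 2.58.

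Bak1, the pore former among the members measured, lay at percentile 52.5. It had 4.67, 5.24 and 4.91 in mutant kainate pools and 4.35, 4.42 and 4.51 in mutant saline pools, against 4.35, 5.15 and 4.51 in control kainate pools and 4.48, 4.19 and 4.43 in control saline pools. The mutant kainate arrays lay above the mutant saline arrays, and the control groups overlapped. Averaged over genotypes the kainate difference was 0.41 (SE 0.14, 95% interval 0.09 to 0.72, adjusted p = 0.259), and it was 0.51 in mutants (adjusted p = 0.702). Genotype differed by 0.16 (95% interval -0.16 to 0.48).

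Among the BH3-only proteins, Bid links death receptors to mitochondria. Its probe set had 5.84, 5.25 and 5.60 in mutant kainate pools and 5.90, 5.76 and 5.84 in mutant saline pools, against 5.43, 5.42 and 4.82 in control kainate pools and 5.47, 6.16 and 5.59 in control saline pools. In controls the kainate arrays lay below the saline arrays and in mutants the groups overlapped, with the lowest value on control kainate replicate 3. The averaged kainate difference was -0.39 (SE 0.16, 95% interval -0.74 to -0.05, adjusted p = 0.33) and -0.29 without that array (adjusted p = 0.403). Genotype differed by 0.22 (95% interval -0.13 to 0.56).

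Bad, which growth factor signalling holds inactive by phosphorylation, was measured by 99670_at at percentile 64.2. It had 6.19, 5.89 and 5.99 in mutant kainate pools, 6.18, 5.99 and 6.04 in mutant saline pools, 6.23, 5.55 and 6.00 in control kainate pools and 6.08, 6.04 and 6.11 in control saline pools. Control kainate replicate 2 was the lowest array and the groups overlapped, with differences of -0.10 for kainate (95% interval -0.34 to 0.14) and 0.04 for genotype (95% interval -0.19 to 0.28). Bcl2l11 is the BH3-only protein that FOXO factors induce. On 100988_at it had 4.65, 4.66 and 4.47 in mutant kainate pools, 4.73, 4.42 and 4.40 in mutant saline pools, 4.39, 4.42 and 4.61 in control kainate pools and 4.70, 4.46 and 4.27 in control saline pools. Here too the groups overlapped, and the differences were 0.04 for kainate (95% interval -0.17 to 0.24) and 0.08 for genotype (95% interval -0.12 to 0.28). The remaining Bcl2l11 probe sets ranged from 2.74 to 3.34 (99418_at) and from 2.90 to 3.59 (99419_g_at), and the second Bad probe set, 161500_i_at, from 0.45 to 0.62.

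The dim members followed the control kainate replicate 3 array. Of the 8 family probe sets below the median level, 7 had their highest value of the 12 arrays on it, which is 87.5%, beside 84% of all 6211 probe sets below the median. Of the 6 brighter members 0 did, beside 8.52% of all probe sets above the median. The exception among the dim members was the Bcl2a1 probe set, whose value on that array was 0.08 above the mean of the other 2 control kainate arrays. The median of that deviation was 0.27 over the dim members and -0.23 over the brighter ones, beside 0.36 and -0.23 over all probe sets of the same ranges.

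**Figure D4:**
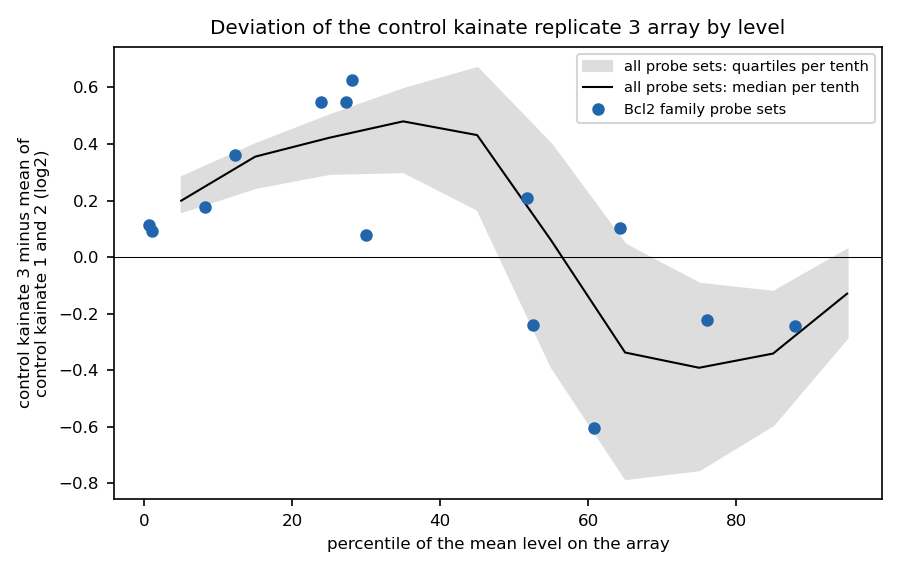
Value on control kainate replicate 3 minus the mean of control kainate replicates 1 and 2 (log2, vertical axis) against the percentile of the mean level (horizontal axis). Blue points are the 14 family probe sets, and the line and band are the median and quartiles of all probe sets per decile of level. The point of the Bcl2a1 probe set at percentile 30.0 lies at 0.08, under the band.

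Other genes of the apoptosis pathway were counted from 6 lists of 75 genes, of which 54 were measured by a single-symbol probe set, each taken by its brightest. Averaged over treatments 1 was higher in mutants and 0 were lower, where 0.715% of all genes were called. In the other 6 comparisons limma called 0 of 54. There the shares of all genes called were 1.09% for kainate averaged over genotypes, 0.412% for kainate in controls, 0.424% for kainate in mutants, 0.158% for genotype under saline, 0.424% for genotype under kainate and 0% for the interaction. At an unadjusted p under 0.05 kainate gave 9 of the 54 averaged over genotypes (13.6% of all genes), 5 in mutants (7.14%) and 7 in controls (8.4%). Genotype gave 7 averaged over treatments (7.31%), 5 under kainate (6%) and 3 under saline (3.1%), and the interaction gave 0 (1.07%). The median difference of the 54 was 0.03 for averaged kainate and -0.05 for averaged genotype, beside 0.02 and -0.04 over all genes.

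The called gene was Bok, a pore former related to Bak1 and Bax that the guardians restrain little. It had 8.22, 8.39 and 8.66 in mutant kainate pools and 8.97, 9.05 and 8.59 in mutant saline pools, against 7.71, 7.82 and 7.89 in control kainate pools and 7.99, 8.35 and 7.96 in control saline pools. Mutant arrays lay above control arrays under both treatments. The averaged genotype difference was 0.69 (SE 0.11, 95% interval 0.45 to 0.94, adjusted p = 0.0198), and the averaged kainate difference was -0.37 (adjusted p = 0.179). The genotype call was lost without control saline replicate 1 (adjusted p = 0.0572) or 3 (0.0691), mutant kainate replicate 2 (0.0584) or 3 (0.0599), or mutant saline replicate 1 (0.0629) or 2 (0.0673). With arrays numbered 2 and 3 alone it was 0.66 with an adjusted p of 0.199.

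Bcl2l2 (Bcl-w), a guardian of neurons, ran the other way, and whether it passed depended on the fit. It had 6.99, 7.63 and 7.51 in mutant kainate pools and 7.43, 7.69 and 7.51 in mutant saline pools, against 7.63, 8.01 and 7.64 in control kainate pools and 8.11, 8.42 and 8.36 in control saline pools. Mutant arrays lay below control arrays within each treatment, narrowly so under kainate. Its averaged genotype difference was -0.57 (SE 0.12, 95% interval -0.84 to -0.30, adjusted p = 0.0899) and did not pass. It passed with the replicate number as a block (adjusted p = 0.00753), with replicate 1 as a batch (0.0103), with that batch and without control kainate replicate 3 (0.00337), and with array weights (0.0121). With arrays numbered 2 and 3 alone it was -0.52 and did not pass (adjusted p = 0.163). Leaving out control kainate replicate 3 without a batch gave -0.60, which did not pass either (adjusted p = 0.105). Under saline the difference was -0.76 (adjusted p = 0.301), with an adjusted p of 0.0306 under the block. The microglial (9 of 15 higher), astrocyte (1 of 7 higher) and CA1 (1 of 3 lower) markers moved with genotype on the same arrays as Bok and Bcl2l2, and their part in these differences was not tested.

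The remaining named genes did not pass in the fit described. For kainate averaged over genotypes, Vdac2, a channel of the outer mitochondrial membrane, differed by 0.47 (adjusted p = 0.101; 0.07 on its other probe set), Bag3, a co-chaperone, by 0.40 (adjusted p = 0.185; 0.04 on its other probe set) and Cflar, an inhibitor of caspase 8 activation, by -0.39 (adjusted p = 0.31). Cdkn1a, the p53 target p21, differed by 0.32 (adjusted p = 0.0694) on a probe set at percentile 41.6. Its adjusted p was 0.0492 with replicate 1 as a batch, 0.0637 with the replicate block and 0.107 with arrays numbered 2 and 3 alone. All 6 kainate arrays lay above all 6 saline arrays, but narrowly (lowest 3.65, highest saline 3.63). The other Cdkn1a probe set, at percentile 2.09, differed by 0.37 (adjusted p = 0.784). Casp9, the initiator caspase of the apoptosome, differed by -0.30 (adjusted p = 0.151) on its brightest probe set. Its other 3 probe sets differed by 0.03 to 0.19, and with probe sets averaged per gene the value was -0.0097 (adjusted p = 0.954). Pdcd4, an inhibitor of translation, differed by 0.35 (adjusted p = 0.16). For genotype averaged over treatments, Tnfrsf1a, a receptor of tumour necrosis factor, differed by 0.34 (adjusted p = 0.584; -0.09 on its other probe set) and Apaf1, the scaffold of the apoptosome, by 0.29. The other genes named by the same rule differed by -0.27 to 0.24 in the comparison that named them: Casp2, Casp4, Cycs, Xiap, Birc2, Birc3, Birc6, Daxx, Pdcd6 and Siva1.

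**Figure D5:**
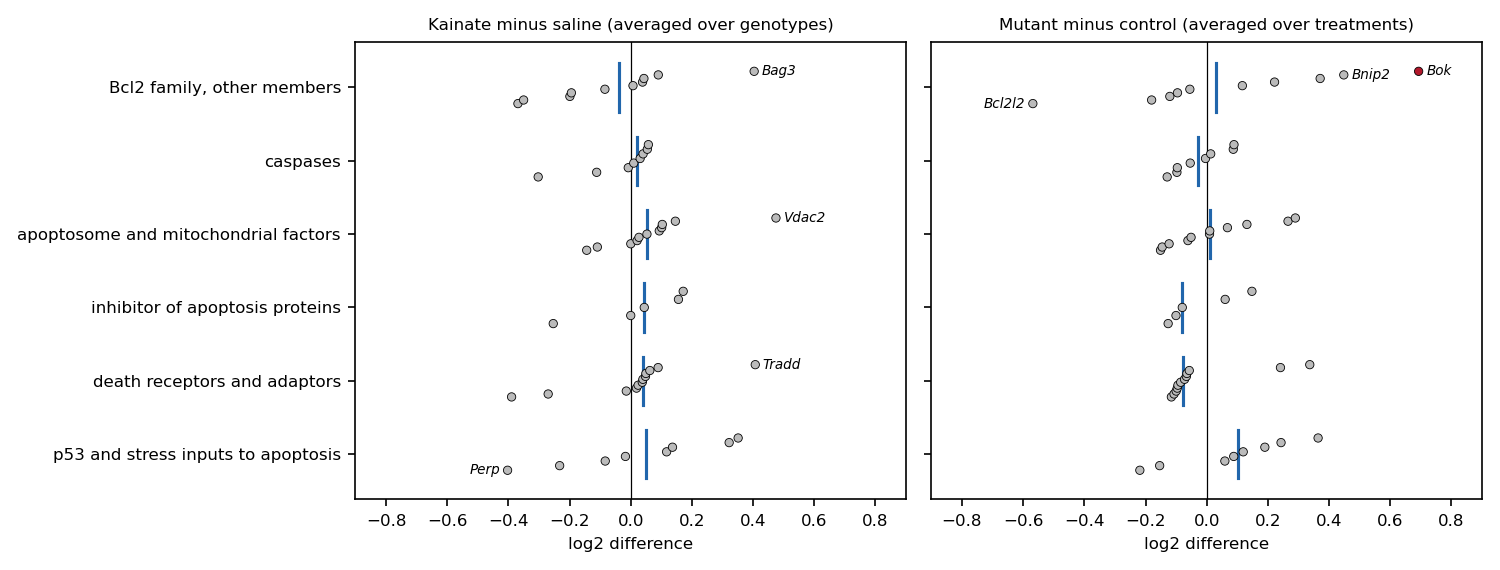
Log2 differences of the 54 measured genes of the 6 other apoptosis lists, for kainate minus saline averaged over genotypes (left) and mutant minus control averaged over treatments (right). Each point is a gene, the blue bar is the list's median, and the dark red point is Bok, the called gene, at 0.69.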

How the data were processed

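RNA of 12 pools was measured on 12 arrays, and the deposited table holds log2 values that the authors made with GCRMA in R 2.4.1, per the submitters' processing notes. Neither the GCRMA version nor whether the arrays went through it jointly is given in the sources used here. GCRMA subtracts background by probe sequence, which can compress differences of dim probe sets. Arrays give no counts, so their number limits the precision.

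Of 12488 rows, 66 control probe sets were left out and 12422 tested with no filter on level. The annotation gave 1 symbol to 10833, several to 396 and none to 1193. Groups came from the sample titles. A mean per group was fitted with limma 3.58.1 in R 4.3.3 to all 12 arrays (8 residual and 2.48 prior degrees of freedom), with 7 two-sided contrasts adjusted by Benjamini-Hochberg. Intervals and standard errors are those of this fit. Replicates are labelled as biological, so p-values measure the spread between pools. The script was tested on simulated data. Named genes were every member, each called gene of the other lists, and the 2 genes per list with the smallest p in each averaged contrast; individual arrays of Bcl2l2 were added after its values were seen. The members and lists were chosen with earlier results of these data known. Markers were read by the brightest probe set of each gene. Promoter windows are from RefSeq, GRCm38.p6. The table names no genome build. Alternatives were leaving out each array, 10 other settings and 1 added after the data were seen.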

Additional observations from a re-analysis of the deposited data

How the results depend on the processing

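No value that passed the test changed sign under an alternative. For the Bcl2a1 probe set the averaged kainate difference was called in 21 of the 21 alternatives that hold it (adjusted p 0.000459 to 0.0362), the averaged genotype difference in 20 of 21, the kainate difference in controls in 15 of 22 (0.00444 to 0.185) and the genotype difference under saline in 9 of 22 (0.000448 to 0.262). Mcl1 with kainate was called in 10 of 22 (0.000977 to 0.154) and Bok in 14 of 22 (0.0124 to 0.199). Bak1 and Bid passed for averaged kainate with array weights only (0.50, adjusted p = 0.0209, and -0.43, adjusted p = 0.0365). These weights were very uneven, from 0.03 for control kainate replicate 3 to 6.17 for control saline replicate 2. Mutant saline replicate 2 had 5.88, so most of the weight in each saline group lay on its replicate 2.

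Members called for averaged kainate (2) numbered 4 with array weights and 1 with arrays centred on their medians, with an intensity trend and robust prior, above the median level only, or with replicates 2 and 3 only. Members called for kainate in controls (1) numbered 2 with array weights, 2 with replicate 1 as a batch and control kainate replicate 3 left out (a setting added after seeing the data), and 0 with centring, above the median level only, or with only the arrays compared. Array weights called 3 members for kainate in mutants, against 0. Calls among all probe sets moved as well in the alternatives other than leaving out an array. They ranged from 62 to 2036 for averaged kainate, with 117 in the main setting. For kainate in controls they ranged from 22 to 380 (main setting 41), and for kainate in mutants from 27 to 1619 (main setting 37). The averaged genotype member (1) was lost, leaving 0, above the median level only and with replicates 2 and 3 only, and the member under saline (1) in these settings and with centring, quantile normalization or only the arrays compared. Leaving out an array gave 1 to 2 members for averaged kainate, 0 to 1 for kainate in controls and 0 to 1 for genotype under saline. The cause was not tested, except that the level filter drops the Bcl2a1 probe set and smaller sets hold fewer arrays.

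Of the other apoptosis genes, array weights called 5 for averaged genotype (1 in the main setting). Where the main setting called 0, they called 11 for averaged kainate, 4 for kainate in controls and 6 for kainate in mutants. They also called 4 for genotype under saline and 1 for genotype under kainate, again against 0. Calls among all probe sets rose too, to the kainate ranges given above. In the same alternatives they reached at most 478 for averaged genotype (main setting 76), 680 for genotype under saline (17) and 99 for genotype under kainate (44). Replicate 1 as a batch called 2 for averaged genotype, 2 for averaged kainate and 1 for genotype under saline, and with control kainate replicate 3 also left out 3, 2 and 1. Replicates 2 and 3 only called 0 for averaged genotype and 1 each for averaged kainate and kainate in controls, and quantile normalization 1 each for kainate in controls and genotype under kainate. Leaving out an array gave 0 to 1 for averaged genotype and 0 to 1 for averaged kainate.

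The labels do not say what a shared replicate number means. Deviations of arrays with the same number correlated at 0.368 to 0.848 for number 1, 0.302 to 0.583 for number 2 and -0.01 to 0.621 for number 3, and 11 of 12 arrays correlated best with their own number, a hint from the data and not the design. Arrays numbered 1 correlated at -0.722 to -0.008 with arrays of the other numbers in other groups. Arrays numbered 2 correlated with those numbered 3 of other groups at 0.022 to 0.568, so mainly number 1 stood apart. With the number as a replicate block, 2 other apoptosis genes were called for averaged genotype and 1 for genotype under saline, where Bcl2l2 passed in both (adjusted p = 0.00753 and 0.0306), and the Bcl2a1 probe set, Mcl1 and Bok kept their calls. Dim probe sets, 8 of 14 members, limit what could be seen.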

Other observations

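The probe sets whose values ran most like those of the Bcl2a1 probe set over the 12 arrays were Cux1 (Pearson r = 0.900), a homeodomain transcription factor, Tspan31 (0.891), a tetraspanin, Chgb (0.887), a protein of secretory granules, Pxmp2 (0.882), a peroxisomal membrane protein, and Igfbp6 (0.870), a binding protein of insulin-like growth factors. For Mcl1, added after its values were seen, they were Dnajb1 (0.955), a co-chaperone of heat shock protein 70, Errfi1 (0.949), a feedback inhibitor of the EGF receptor, Atf3 (0.933), a stress-induced transcription factor, Tiparp (0.923), a mono-ADP-ribosyltransferase, and Per1 (0.915), a clock gene. The 12 points share the 4 groups and the array effects described for replicate 1 and control kainate replicate 3, and each list holds the highest of all single-symbol probe sets of other genes.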
